A study of Mus musculus with 6 samples.

Results

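The genes described here are 74 of the 15601 genes counted in liver lymphocytes of mice given tamoxifen or oil, namely the genes of the Fanconi anemia pathway and of homologous recombination. They were taken as the genes whose deposited pathway annotation carried either term, together with Fignl1, with 60 or more counts summed over the 6 libraries. Of 77 candidates 74 met the count minimum: 35 carried the Fanconi anemia term alone, 24 the homologous recombination term alone, 14 both terms, and Fignl1 neither. Fignl1 was added because of its low level after tamoxifen in this same contrast, so its difference is described without a test and supports nothing about the others. The other 73 were chosen by annotation and total count. Just inside the minimum lay Fan1 with 89, Rad51b with 127 and Rev1 with 194 counts, and just outside it Poln with 54, Sycp3 with 16 and Rsph10b with 3.

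The tamoxifen group and the oil group each had 3 libraries. The study concerns RORα, a nuclear receptor, in type 1 innate lymphoid cells (ILC1s), while the labels call the cells lymphocytes from liver. RNA was turned into cDNA and amplified with kits made for very small inputs, without molecular identifiers, and the protocol is worded for single cells. Tamoxifen binds oestrogen receptors and often serves to activate inducible forms of the recombinase Cre. The sources used here do not give the genotype, any Cre driver, the doses, the age of the mice, the number of cells in a library or whether each library came from its own animal. All p-values therefore measure only how far these libraries vary, which may be technical.

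Library totals were 5358622 to 5849947 counts with tamoxifen and 5289803 to 6325899 with oil. The genes described here took 0.404 to 0.468% of the counts with tamoxifen and 0.415 to 0.492% with oil. All 10 ILC1 and natural killer (NK) cell markers were counted, and none was called. They had 4 higher and 6 lower estimates (log2 fold changes of -1.47 to 1.01, median -0.28). Of the 10, 4 had an unadjusted p under 0.05 by the quasi-likelihood test of edgeR, against 3.52% of all genes tested. The groups did not overlap in 5, with 3 lower and 2 higher, against 4.35% lower and 4.52% higher over all genes tested. Both counts were above those shares. Ncr1, which encodes the receptor NKp46, averaged 1241 ± 91.1 CPM with tamoxifen and 1227 ± 127 CPM with oil (SD, n = 3 each). CPM are counts scaled to library size. Itga1 and Cxcr6, both ILC1 markers, were at -1.19 and -1.47. Cxcr6 was the lowest of the 10, and the highest was at 1.01, so the pooled list did not move in 1 direction. It holds markers of ILC1s and of NK cells, and a shift between these cells was not tested. Transcripts of other cell types were present. T cell markers, some of which NK cells and ILC1s also express, summed to 231 to 424 CPM with tamoxifen and 205 to 316 CPM with oil, and 5 of 5 tested had higher estimates. Erythroid markers summed to 74.9 to 233 CPM with tamoxifen and 3.11 to 570 CPM with oil, and 4 of 4 tested had lower estimates; oil replicate 2 was the lowest library and oil replicate 3 the highest. Endothelial markers summed to 31.5 to 53.2 CPM with tamoxifen and 41.4 to 49.0 CPM with oil, and macrophage and Kupffer cell markers to 29.7 to 37.0 CPM with tamoxifen and 23.3 to 33.7 CPM with oil. Hepatocyte markers summed to at most 1.67 CPM in any library, and the B cell marker Cd79b was at 5.93 to 12.8 CPM with tamoxifen and 6.95 to 15.1 CPM with oil. The part of other cells in the results below was not tested. Rora had 18.3, 13.4 and 20.4 CPM with tamoxifen, against 27.7, 24.9 and 19.9 CPM with oil, groups that overlapped. If a library held many cells, fewer cells that express a gene and less of its RNA in each cell cannot be told apart.

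The Fanconi anemia pathway repairs crosslinks that join the strands of DNA. A core complex, brought to the lesion by FANCM and its partners, attaches ubiquitin to FANCD2 and FANCI, after which nucleases cut the crosslink out, translesion polymerases copy past it, and homologous recombination restores the broken copy. In recombination the ends are resected, RPA coats the single strands, and BRCA2 and its partners prepare them to search for and invade a matching sequence. FIGNL1 is an AAA-type ATPase that acts in homologous recombination. Many of these genes are most active in cells that replicate their DNA, as expanding lymphocytes do.

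Promoters are shown for Fignl1, which of the 74 genes had the largest fold change, and for Topbp1 and Atrip, genes of the same replication checkpoint. The groups did not overlap in Topbp1, which was lower, and in Atrip, which was higher, but neither gene was called. Each is the stretch of 250 bases before the gene's start, 5′ to 3′ on the gene's own strand, from RefSeq on GRCm38.p6. They lie at chr11:11808963-11809212 (minus strand) for Fignl1, chr9:103305077-103305326 (plus strand) for Topbp1 and chr9:109074125-109074374 (minus strand) for Atrip; the start deposited for Topbp1 differs from that of RefSeq by 112 bases. Capitals mark matches to the motifs searched on both strands.
Fignl1: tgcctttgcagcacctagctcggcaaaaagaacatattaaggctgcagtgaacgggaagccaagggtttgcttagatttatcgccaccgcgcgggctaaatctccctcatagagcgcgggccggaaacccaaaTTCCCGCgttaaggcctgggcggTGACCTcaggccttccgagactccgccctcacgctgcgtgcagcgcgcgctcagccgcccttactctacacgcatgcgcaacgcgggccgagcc
Topbp1: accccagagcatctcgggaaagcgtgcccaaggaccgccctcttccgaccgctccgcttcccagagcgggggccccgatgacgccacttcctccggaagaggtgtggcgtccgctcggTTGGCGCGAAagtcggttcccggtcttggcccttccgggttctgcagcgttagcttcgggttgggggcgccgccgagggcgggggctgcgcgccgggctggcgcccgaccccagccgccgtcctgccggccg
Atrip: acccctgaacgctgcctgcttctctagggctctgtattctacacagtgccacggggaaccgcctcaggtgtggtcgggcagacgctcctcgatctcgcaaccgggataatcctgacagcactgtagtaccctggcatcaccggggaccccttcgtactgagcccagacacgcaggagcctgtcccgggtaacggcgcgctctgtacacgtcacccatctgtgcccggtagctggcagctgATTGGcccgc
The E2F core, searched with the letters TTCCCGC and, in its other forms, with TTCGCGC or the variant TTGGCGC, is held by 6.69% of 32851 mouse promoter windows of this length. The Fignl1 window held 1 such core, 117 to 111 bases before the start, and Topbp1 held overlapping cores on opposite strands between 132 and 123 bases before it. Fignl1 also held AGGTCA on the reverse strand, 94 to 89 bases before the start. This hexamer, bound by many nuclear receptors, is held by 14.0% of windows. It was searched without the bases beside it and points to no receptor in particular. The CCAAT box, held by 33.8% of windows, was matched in Atrip on the reverse strand, 10 to 6 bases before the start. The CHR element, searched as TTTGAA and in the variant form TTCGAA, held by 17.1%, was matched in none of the 3 windows. A match of these letters is a description and not a site shown to be bound. RefSeq windows were matched for 58 of the 74 genes (78.4%), and no share over the whole group is given. The 3 windows shown do not stand for the others. E2F cores were matched mostly for genes with lower estimates, such as Fancb and Rad52, and most of the 74 genes had lower estimates. Of the genes with higher estimates only Rpa2, Apitd1 and Rmi1 had a match. The windows matched to Slx4 and Fan1, which had lower estimates, held 0. For Slx4 the RefSeq start lies 2092 bases from the deposited start, and its window lies inside the deposited gene.

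Fignl1 (ENSMUSG00000035455; mm10 chromosome 11, 11787431 to 11808962, minus strand) had 19.4, 60.3 and 46.2 CPM in the tamoxifen libraries, against 206, 211 and 172 CPM in the oil libraries. Every tamoxifen library lay well below every oil library, and tamoxifen replicate 1 was the lowest. The means were 42.0 ± 20.8 CPM with tamoxifen and 196 ± 21.2 CPM with oil (SD, n = 3 each), from 711 and 3408 counts, a log2 fold change of -2.22 (SE 0.34), or 4.67-fold lower. Per length, its level was 4.64 ± 2.40 FPKM with tamoxifen and 21.7 ± 3.18 FPKM with oil (FPKM, fragments scaled to gene length and library size, as deposited). The tamoxifen libraries differed 3.10-fold among themselves and the oil libraries 1.22-fold. Leaving out 1 library moved the log2 fold change between -2.58 (without tamoxifen replicate 2) and -1.89 (without tamoxifen replicate 1). Over all genes tested, 10 (0.0925%) had an estimate this low or lower, Fignl1 included, and 2 of these were among the 1932 genes with a mean CPM at or above that of Fignl1.

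**Figure D1:**
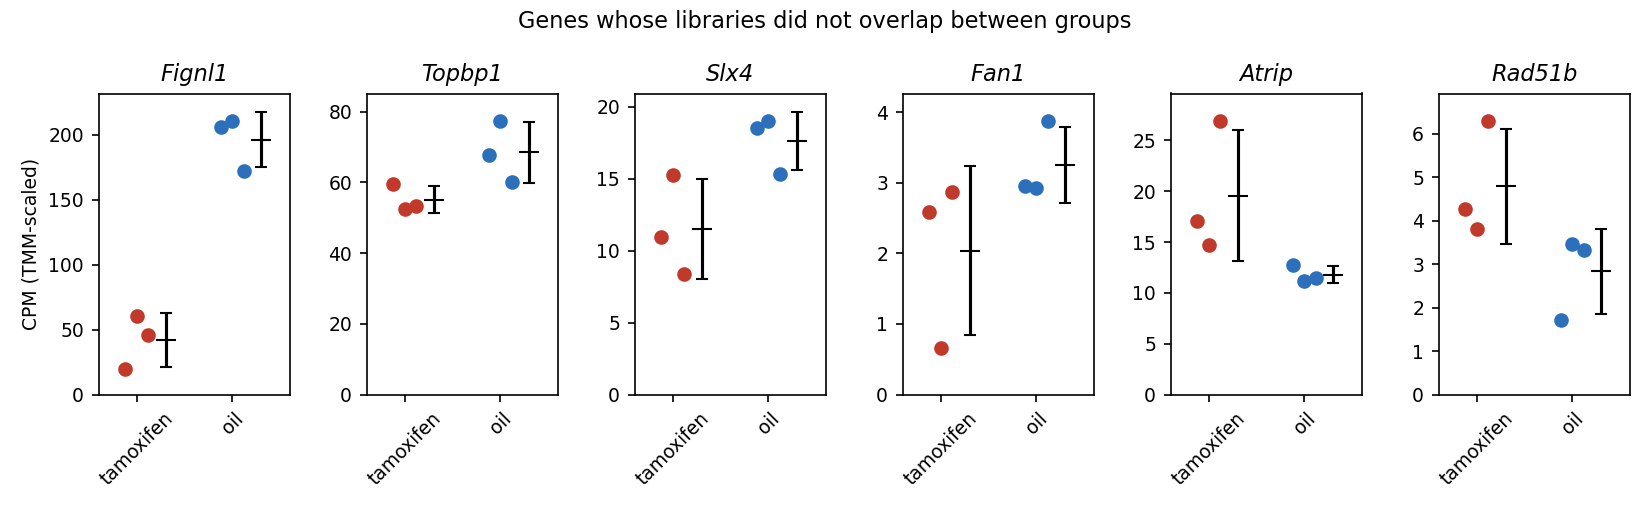
CPM of Fignl1, Topbp1, Slx4, Fan1, Atrip and Rad51b, whose tamoxifen and oil libraries did not overlap; points are libraries (tamoxifen red, oil blue) and the bars show the mean and SD of 3. Fignl1 had 19.4 to 60.3 CPM with tamoxifen and 172 to 211 CPM with oil, while the other 5 genes differed by at most 1.69-fold.

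The nearest genes counted on either side of Fignl1 had estimates above 0. Ikzf1, which encodes the lymphoid transcription factor Ikaros and lies 14.5 kb away, averaged 77.8 ± 31.5 CPM with tamoxifen and 66.5 ± 17.6 CPM with oil (log2 fold change 0.22, SE 0.31). Ddc, 5.14 kb away on the other side, had 86 counts over all libraries (0.76, SE 0.73). No exon of another annotated gene overlapped those of Fignl1. Of the 74 genes 13 lie on chromosome 11, and the other 12 of these had log2 fold changes of -0.38 to 0.16.

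By library pattern, the genes most like Fignl1 among all genes tested were Itga1, P4ha1, Pank3, 9930111J21Rik1 and Diap2, with Pearson correlations of log2 CPM of 0.984, 0.983, 0.982, 0.979 and 0.978 over the 6 libraries. These describe libraries of 2 groups that share the same split, and likeness over so few libraries carries no p. Itga1, which encodes the ILC1 surface integrin CD49a, had 10.6, 19.6 and 13.4 CPM with tamoxifen, against 31.9, 35.5 and 32.3 CPM with oil. Among the other 73 recombination and Fanconi genes the correlations were positive for some and negative for others. Slx4 was at 0.80, and Pold2 was the lowest at -0.82.

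None of the other 73 genes passed the test, and over all genes tested no gene at all was called lower. All 74 were counted in every library and passed the filter on low counts. By the quasi-likelihood test of edgeR, adjusted after Benjamini and Hochberg over 10811 genes, 0 of the 73 were called, where 0.00925% of all genes tested were called (1 gene, higher), and the smallest adjusted p among them was 0.999. DESeq2 and limma-voom called 0 of them as well. At an unadjusted p under 0.05 there was 1 of 73, Atrip, against 3.52% of all genes tested. That count was 0 to 4 with 1 library left out (4 without tamoxifen replicate 2, 2 without oil replicate 3), and 0 with DESeq2 and with limma-voom.

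Most of the 73 had slightly lower estimates with tamoxifen, none of them called. Their median log2 fold change was -0.13, against -0.0038 for all genes tested, and 51 of 73 estimates (69.9%) were lower with tamoxifen, against 50.5% of all genes. Their estimates spanned -0.68 for Fan1 to 0.76 for Rad51b, and 68 of the 73 (93.2%) lay within 1.5-fold, as did 88.2% of all genes. The median standard error of a gene was 0.29, which describes single-gene estimates and is not the error of the group's median. With single libraries left out, the group's median log2 fold change ranged from -0.19 to -0.05. Without oil replicate 2 the median was -0.05 and 44 of 73 were lower; without oil replicate 3 the median was -0.19; without tamoxifen replicate 3 43 were lower.

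**Figure D2:**
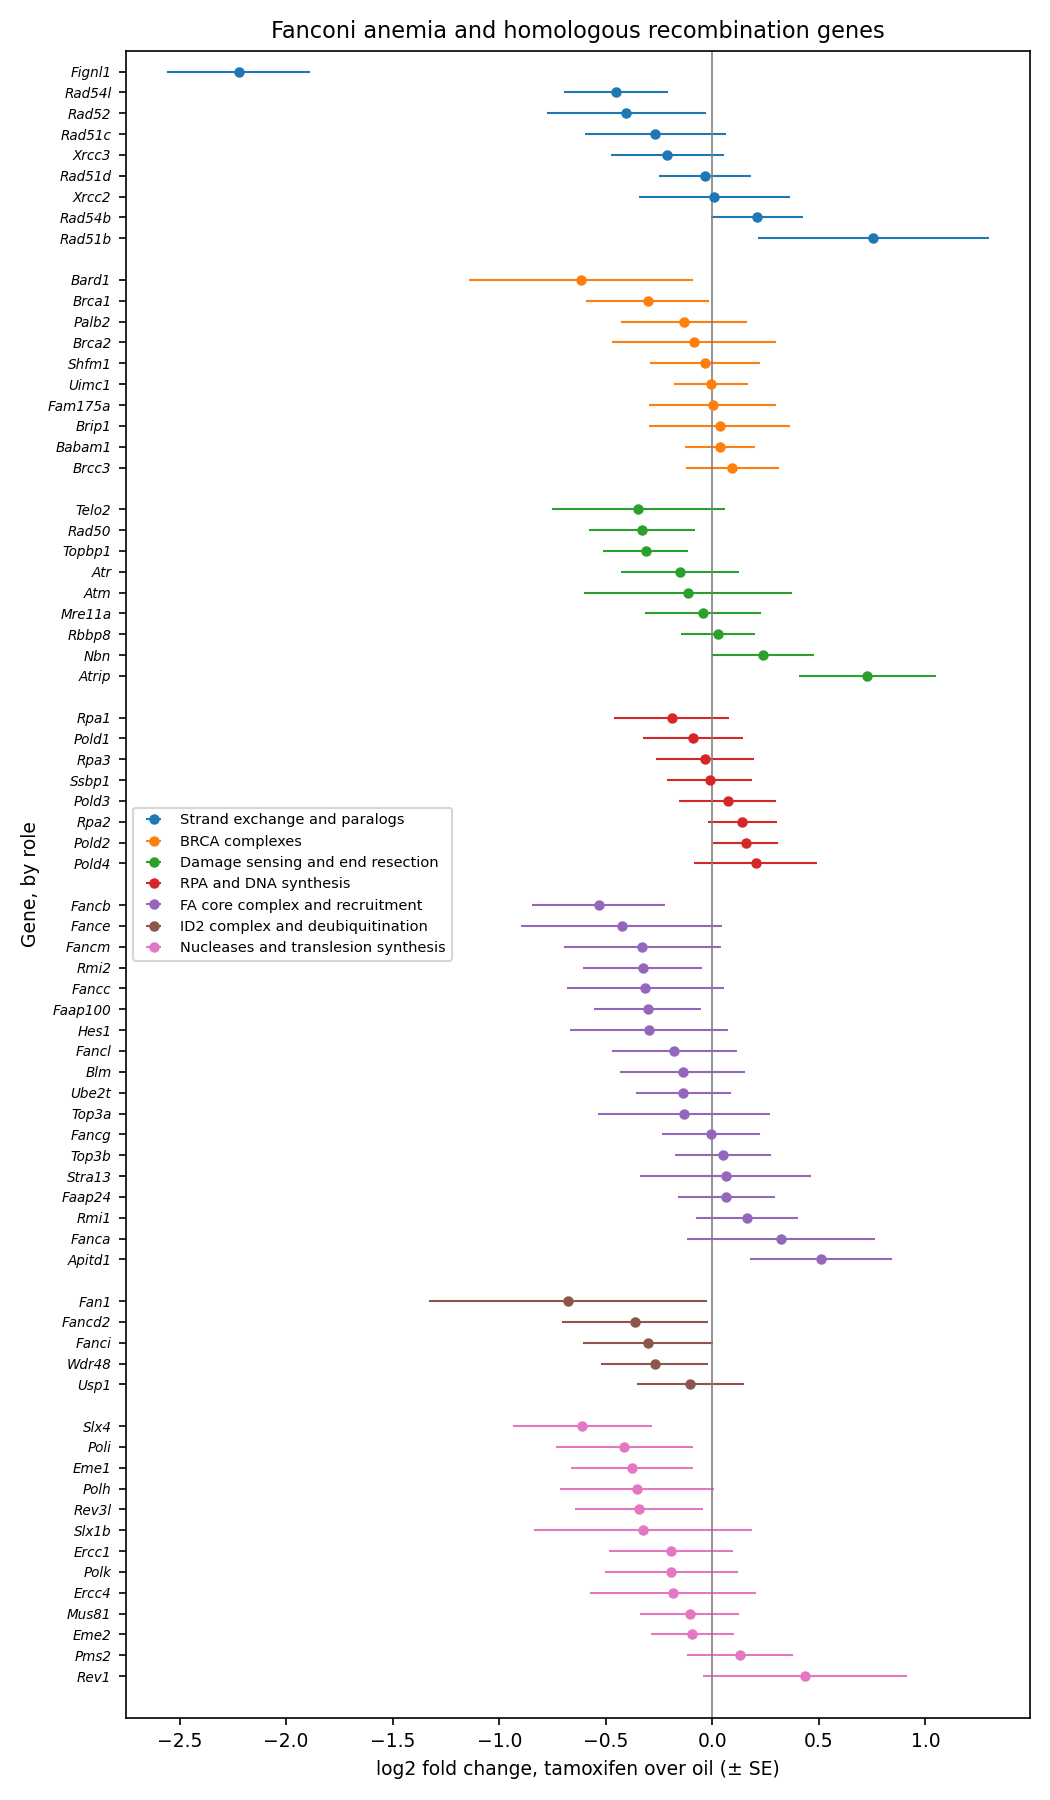
Log2 fold change of tamoxifen over oil for 72 of the 74 genes, grouped by role and coloured by role, with bars of 1 SE. Fignl1, at -2.22, stands apart from the others, which span -0.68 to 0.76.

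Libraries did not separate by group for these genes. Relative to each gene's own mean over the 6 libraries, the median log2 deviation of the 73 was 0.02, 0.07 and -0.07 in tamoxifen replicates 1, 2 and 3 and 0.16, 0.19 and -0.07 in oil replicates 1, 2 and 3. Oil replicate 3 lay with the lowest tamoxifen library, and oil replicates 1 and 2 lay above every tamoxifen library. In all genes tested the same medians were -0.00034 to 0.030. In oil replicate 2 the deviations of the 73 also followed exon length (Pearson r = 0.42, n = 73, across genes, against 0.28 over 10784 genes), and in tamoxifen replicate 3 they ran the other way (r = -0.31, against -0.18). The part of gene length in the group's median was not tested.

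**Figure D3:**
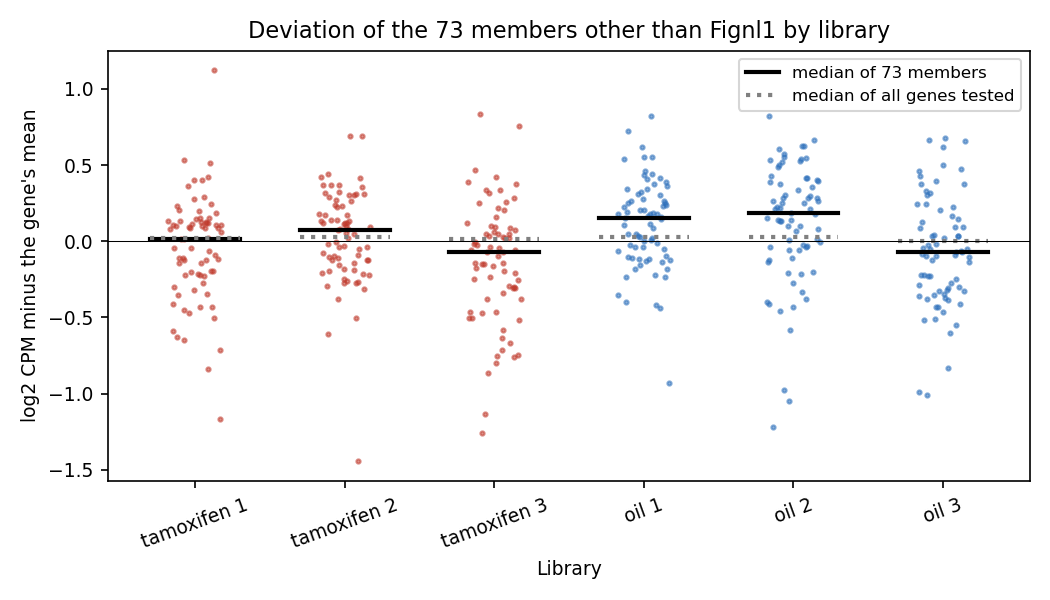
Deviation of log2 CPM from each gene's mean over 6 libraries, for the 73 genes other than Fignl1; solid lines are their medians and dotted lines the medians of all genes tested. The medians were 0.02, 0.07 and -0.07 in the tamoxifen libraries and 0.16, 0.19 and -0.07 in the oil libraries.

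In 6 of the 73 genes the groups did not overlap. In 4 (5.48%; background 4.35% of genes tested) all tamoxifen libraries were below all oil libraries, and in 2 (2.74%; background 4.52%) above. Both shares lie near the background of all genes. Those named below with their roles are Topbp1, Slx4 and Fan1, which were lower, and Atrip and Rad51b, which were higher; none of the 6 passed the test (smallest adjusted p = 0.999 by the quasi-likelihood test of edgeR, adjusted after Benjamini and Hochberg).

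Among the genes of strand exchange, 6 of 9 other than Fignl1 had lower estimates (median log2 fold change -0.21). Rad51b (chromosome 12, 79297351 to 79508656), which acts with its paralogs early in strand exchange, had 4.26, 3.81 and 6.30 CPM with tamoxifen, against 1.71, 3.48 and 3.32 CPM with oil, at a level few counts support (0.76, SE 0.54). Its groups lay next to each other, 3.81 CPM being the lowest with tamoxifen and 3.48 CPM the highest with oil. The other paralogs Rad51c (-0.27, SE 0.33), Rad51d (-0.03, SE 0.22), Xrcc2 (0.01, SE 0.36) and Xrcc3 (-0.21, SE 0.27) overlapped between groups. Rad52, which binds single strands, had 6.11, 10.3 and 13.7 CPM with tamoxifen, against 14.3, 14.5 and 11.1 CPM with oil (-0.40, SE 0.37). Rad54l, a motor protein of strand exchange, had 86.3, 75.6 and 51.0 CPM with tamoxifen, against 119, 94.0 and 77.6 CPM with oil (-0.45, SE 0.25), with exons of Lrrc41 over 15.4% of its exon bases. Its relative Rad54b was at 0.21 (SE 0.22), with Fsbp over 35.8% of its exon bases.

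The BRCA genes were mixed: 6 of 10 had lower estimates, with a median of -0.02. Brca1, which helps to start recombination, had 14.4, 25.5 and 22.0 CPM with tamoxifen, against 25.2, 22.0 and 29.4 CPM with oil (log2 fold change -0.30, SE 0.29). Tamoxifen replicate 1 was the lowest of the 6 libraries. Brca2, which prepares single strands for strand exchange, and Palb2, which links BRCA2 to BRCA1, were at -0.09 (SE 0.38) and -0.13 (SE 0.30). Babam1, a subunit of the BRCA1-A complex that reads ubiquitin at breaks, was among the most highly expressed of all, at 158, 141 and 154 CPM with tamoxifen and 146, 137 and 159 CPM with oil (0.04, SE 0.16). Bard1, the partner of BRCA1, was at -0.62 (SE 0.52), and Brip1, Fam175a, Brcc3, Uimc1 and Shfm1 lay between -0.03 and 0.09.

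Of 9 genes that sense damage and resect ends, 6 had lower estimates (median -0.11). Atrip (chromosome 9, 109059747 to 109074124, minus strand), which brings the checkpoint kinase ATR to RPA-coated DNA, had 17.0, 14.7 and 26.9 CPM with tamoxifen, against 12.7, 11.2 and 11.4 CPM with oil. The oil libraries agreed closely, whereas tamoxifen replicate 3 stood above the rest (log2 fold change 0.73, SE 0.32, and 0.43 without that library). Atrip shares 16.0% of its exon bases with Trex1 on the same strand; Trex1 had 24.3, 50.4 and 61.1 CPM with tamoxifen, against 40.3, 18.7 and 57.4 CPM with oil, and its part in the Atrip counts was not tested. Topbp1 (chromosome 9, 103305215 to 103350428), which switches ATR on, had 59.5, 52.4 and 53.4 CPM with tamoxifen, against 67.8, 77.4 and 60.2 CPM with oil (-0.31, SE 0.20). Its highest tamoxifen library and lowest oil library nearly met. The kinases Atr and Atm were at -0.15 (SE 0.28) and -0.11 (SE 0.49), and Mre11a, Nbn and Rad50, the complex that opens break ends, at -0.04, 0.24 and -0.33, all with groups that overlapped. Atm spanned 4.20 to 15.7 CPM within the tamoxifen libraries and 6.65 to 14.3 CPM within the oil libraries. Rbbp8, which starts resection, was at 0.03, and Telo2, which stabilises the checkpoint kinases, at -0.35.

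RPA and DNA synthesis genes held 4 of the 5 highest levels per length, and 4 of 8 had lower estimates (median 0.03). By mean FPKM over the 6 libraries the leading genes were Pold2 (95.6), a subunit of DNA polymerase delta, then Babam1 (93.4), Rpa2 (76.5), Rpa1 (65.9) and Rpa3 (56.5), against a median of 5.79 FPKM for the 73. Rpa1, the large subunit of RPA, had 301, 606 and 412 CPM with tamoxifen, against 564, 595 and 347 CPM with oil; both groups spanned a wide range (log2 fold change -0.19, SE 0.27). Rpa2 had 364, 296 and 336 CPM with tamoxifen, against 307, 272 and 323 CPM with oil (0.14, SE 0.16). Pold2 had 285, 276 and 257 CPM with tamoxifen, against 239, 257 and 237 CPM with oil (0.16, SE 0.15). Rpa3 was at -0.03 (SE 0.23), and the other polymerase delta subunits Pold1, Pold3 and Pold4 lay between -0.09 and 0.20, as did Ssbp1, the single-strand binding protein of mitochondria (-0.01).

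**Figure D4:**
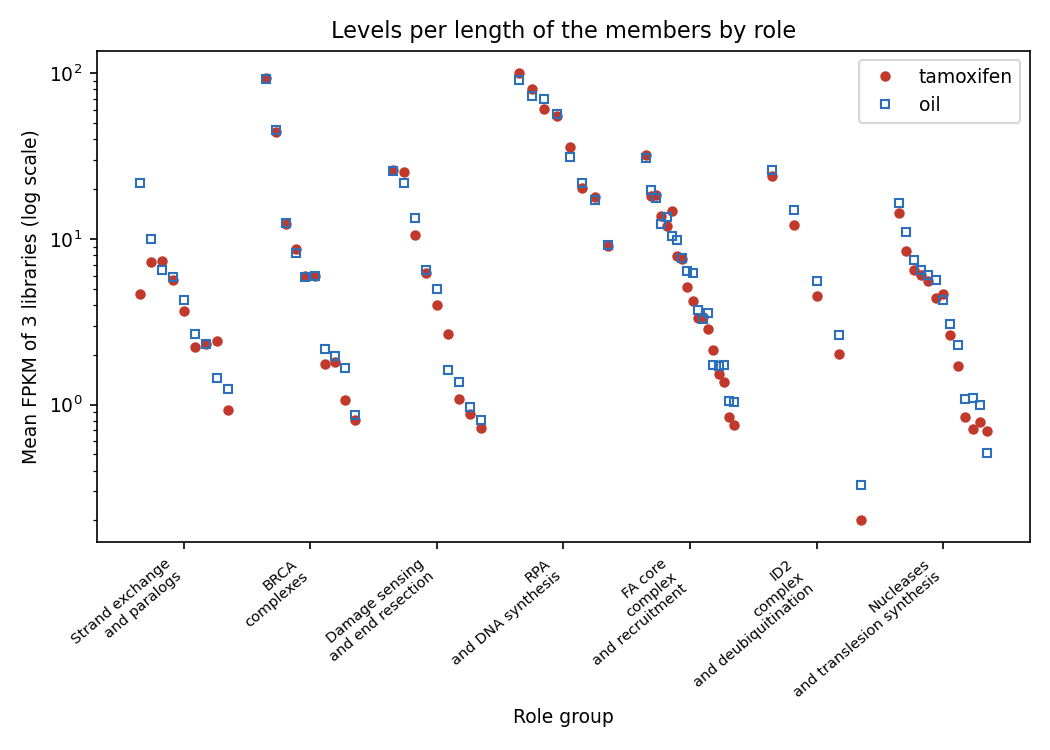
Mean FPKM per group of 3 libraries on a log scale, by role, for 72 of the 74 genes (tamoxifen filled, oil open). Fignl1, at 4.64 FPKM with tamoxifen and 21.7 FPKM with oil, is the widest gap; most other pairs lie close together, and Fan1 is lowest.

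The Fanconi core complex and its recruitment genes had 12 of 18 estimates lower (median -0.14). Fanca, a core subunit, had 39.4, 15.4 and 10.5 CPM with tamoxifen, against 16.6, 20.3 and 15.3 CPM with oil. Tamoxifen replicate 1 set its estimate: 0.32 (SE 0.44) with all libraries and -0.43 without it. Fancb, another core subunit, had 18.3, 16.1 and 16.0 CPM with tamoxifen, against 28.9, 28.9 and 15.1 CPM with oil (-0.53, SE 0.31). Ube2t, the enzyme that hands ubiquitin to the core complex, was at -0.14 (SE 0.22). The histone-fold proteins that hold FANCM on DNA, encoded by Stra13 and Apitd1, were named after their values were seen: both were lowest in oil replicate 2. Stra13 had 82.8, 59.3 and 48.7 CPM with tamoxifen, against 94.8, 24.3 and 63.3 CPM with oil, and Apitd1 had 47.0, 58.7 and 55.9 CPM with tamoxifen, against 58.3, 20.7 and 34.3 CPM with oil. Faap24, Faap100, Fancc, Fance, Fancg, Fancl and Fancm, and Hes1, whose protein the core complex binds, lay between -0.43 and 0.07. Top3a and its partners Blm and Rmi1, which untangle crossed DNA strands, lay at -0.13, -0.14 and 0.16, with Rmi2 at -0.33 and Top3b, a relative of Top3a, at 0.05.

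In the ID2 group, named for the FANCI and FANCD2 pair that carries ubiquitin, 5 of 5 had lower estimates (median -0.30), none called. Fancd2 had 17.0, 27.3 and 14.1 CPM with tamoxifen, against 33.0, 25.4 and 17.0 CPM with oil (log2 fold change -0.36, SE 0.34). Fanci had 30.4, 41.6 and 21.6 CPM with tamoxifen, against 43.4, 44.5 and 27.5 CPM with oil (-0.30, SE 0.30); exons of Polg share 16.0% of its exon bases. Usp1 and Wdr48, the deubiquitinase and its activator that reset the pair, were at -0.10 (SE 0.25) and -0.27 (SE 0.25). Fan1 (chromosome 7, 64346758 to 64374095), a nuclease drawn to ubiquitinated FANCD2, was the lowest per length at 0.264 FPKM, with 14, 4 and 15 counts with tamoxifen, against 19, 16 and 21 counts with oil. Its estimate of -0.68 (SE 0.65) was -0.25 without tamoxifen replicate 2.

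Nuclease and translesion genes had 12 of 14 estimates lower (median -0.19). Slx4 (chromosome 16, 3979105 to 4003770), a scaffold for crosslink nucleases, had 10.9, 15.2 and 8.40 CPM with tamoxifen, against 18.5, 19.0 and 15.3 CPM with oil. The highest tamoxifen library and the lowest oil library nearly met (log2 fold change -0.61, SE 0.33). The nucleases Mus81, Eme1, Eme2, Ercc1 and Ercc4 lay between -0.38 and -0.09, Slx1b, the catalytic partner of SLX4, was at -0.32 (SE 0.51), and the mismatch repair gene Pms2 was at 0.13. The translesion polymerase genes Polh (-0.35, SE 0.36), Poli (-0.41, SE 0.32), Polk (-0.19, SE 0.31) and Rev3l (-0.35, SE 0.30) were lower, and Rev1 (0.44, SE 0.48), a low gene with Eif5b over 26.6% of its exon bases, was higher, in estimate. By annotation, 27 of the 35 genes with the Fanconi anemia term alone had lower estimates (median -0.19), against 13 of the 24 with the recombination term alone (median -0.01); this difference was not tested.

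**Figure D5:**
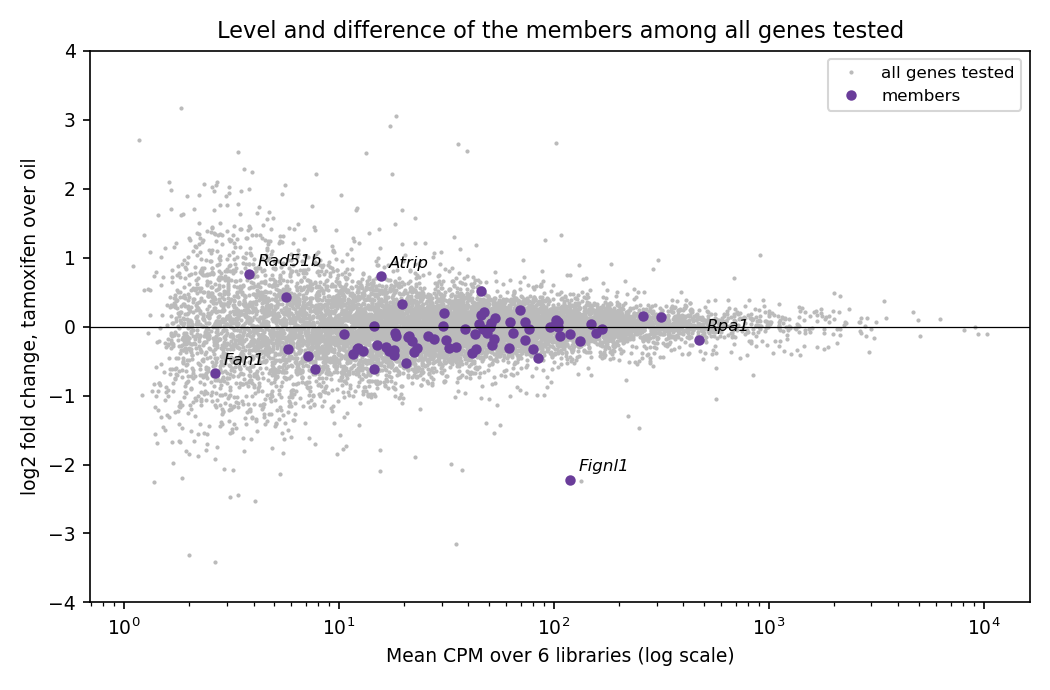
Mean CPM over 6 libraries (log scale) against the log2 fold change of tamoxifen over oil for all 10811 genes tested (grey) and the 74 genes (purple); 3 genes lie beyond the limit of 4 on the vertical axis. Fignl1 lies outside the cloud of the other 73, whose changes stay between -0.68 and 0.76.

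Genes of recombination and crosslink repair that carry neither term were also looked at. Of 40 listed symbols 35 were in the table and 33 were tested, 0 were called, and 21 had lower estimates (median -0.05). Without tamoxifen replicate 3, 14 of them were lower. BC055324, the mouse gene of the FIGNL1 partner FIRRM, had 53.5, 47.6 and 38.9 CPM with tamoxifen, against 52.4, 46.8 and 37.3 CPM with oil (log2 fold change 0.04, SE 0.24). Its groups overlapped, whereas those of Fignl1 did not. Spidr, a scaffold that binds FIGNL1, was at -0.13 (SE 0.24). The groups did not overlap in 3 of the 33, with 2 lower and 1 higher (background 4.35% lower and 4.52% higher), and 1 of the 33 had an unadjusted p under 0.05. That gene was Zgrf1, a helicase gene of crosslink repair, named after its values were seen as the lowest estimate of the list; it had 3.70, 8.78 and 8.21 CPM with tamoxifen, against 14.0, 15.2 and 13.1 CPM with oil (-1.03, SE 0.39).

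Of 45 proliferation genes, 0 were called, 31 had lower estimates, against 50.5% of all genes tested, and the median was -0.07. The groups did not overlap in 3, all lower (background 4.35% lower and 4.52% higher). By the quasi-likelihood test of edgeR, 2 had an unadjusted p under 0.05, against 3.52% of all genes tested. The summed level of the 45 was 13658 to 16012 CPM with tamoxifen and 14472 to 15468 CPM with oil, ranges that overlapped. Mki67, the proliferation marker, had 162, 264 and 196 CPM with tamoxifen, against 285, 336 and 256 CPM with oil (log2 fold change -0.50, SE 0.21), while Pcna, the sliding clamp of replication, averaged 364 ± 30.6 CPM with tamoxifen and 362 ± 52.4 CPM with oil. The part of the share of dividing cells in the recombination genes' levels was not tested.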

How the data were processed

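RNA-seq libraries from mouse liver lymphocytes, 3 from tamoxifen-treated and 3 from oil-treated mice, were analysed. Per the file headers, the deposited table gives counts and FPKM per gene and library, the authors' mean FPKM per group, and a p-value and a q-value of the authors' own comparison, which were not used here. The deposited counts are whole and not normalized, and the authors computed the FPKM values. HISAT2, StringTie and mm10 are listed in the submitters' processing notes without roles; the sources used here name neither the counter nor the strand setting. The deposited log2 column was not used because some cells hold text. Of the columns of values, 0 were left unassigned to a library.

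Counts of all 6 libraries were tested with edgeR 4.0.16 under R 4.3.3 by its quasi-likelihood F test, with TMM factors, the default expression filter by group, group as the only term and Benjamini-Hochberg adjustment over all genes; an adjusted p under 0.05 was called. CPM values carry the TMM factors, and SE is the log2 fold change divided by the root of F. The test was run on simulated counts first. Alternatives were upper-quartile and RLE factors, other filters, limma-voom (limma 3.58.1), DESeq2 1.42.0, a replicate block, limma on log2(FPKM + 1) and log2(FPKM + 0.1), and leaving out each library. Members and lists were chosen with earlier results of these data known. Genes named by rule were Fignl1, any that were called, those with groups that did not overlap and the 5 of highest FPKM. The rule also named the strand-exchange paralogs and the central Fanconi and BRCA genes. Others were named from their role or, where said, after their values were seen. A few genes enter the counts but are not reported here by name. Exon overlaps come from GENCODE M21, in which 61 of the 74 genes have identical coordinates; 19 share 5% or more of their exon bases with another gene. The limit of a 0 (3 counts, or 0.474 to 0.567 CPM per library) covers counting error only, whereas the SDs and SEs also hold variation between libraries.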

Additional observations from a re-analysis of the deposited data

How the results depend on the processing

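None of the 73 genes other than Fignl1 was called in any of the 16 alternative fits. Over those fits the number with lower estimates was 43 to 54 and the median log2 fold change -0.19 to -0.05; the FPKM fits with a filter tested fewer of them. The number at an unadjusted p under 0.05 was 1, and 0 to 4 over those fits. The log2 fold change of Fignl1 was -2.58 to -1.89. Of 330 values of the other named genes, 15 had the opposite sign (in Babam1, Brca2, Palb2, Rad51d, Rpa1, Rpa3, Xrcc2 and Fanca). The number of genes called over the whole table was 1, and it was 6 with no filter on low counts, 21 with DESeq2, 0 with limma on log2(FPKM + 1) with or without the filter, 3 with log2(FPKM + 0.1), and 0 to 6 with 1 library left out; the cause was not tested. The median of all genes was -0.018 with no filter. With sums of 30 and of 120 counts as the minimum there were 75 and 73 genes. Whether replicate numbers pair the libraries cannot be told from so few libraries. Deviations of same-numbered libraries correlated at -0.07, 0.27 and 0.16, and those of differently numbered libraries at -0.33 to 0.17. With the replicate number as a block 0 genes were called, with 50 of the 73 lower and a median of -0.11. Genes with few counts, such as Fan1 with 89, are limited by depth.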
